A study of Rattus norvegicus with 12 samples.

Results

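The liver mRNA level of 5 genes, Slc34a2, Nim1k, Dhrs7l1, Dmxl2 and Csrp1, was followed through the dose groups of a rat study of A-998679, an oxadiazole benzonitrile. The genes were chosen because their signal was lower in treated livers than in vehicle livers, so every difference from vehicle below is a description with an interval and carries no test. Each gene was read by 1 probe set whose platform annotation names that gene alone, which makes 5 of 29176 probe sets and 5 of the 13643 genes with such a probe set. Male Sprague Dawley rats, labelled at 176 to 200 g, were dosed by mouth for 5 days with vehicle (0.2% HPMC, a cellulose suspending agent, in 10 ml/kg) or with A-998679 at a daily dose of 30 mg/kg, 100 mg/kg or 200 mg/kg, with 3 rats in each of the 4 groups. Each liver was flash frozen and its total RNA was hybridized to 1 Affymetrix RAE230 2.0 array. The titles give 200 mg/kg for the top dose while the descriptions of the same rats give 300 mg/kg, and the title was used. The paper gives a heavier starting weight of the rats than the labels do. All rats, vehicle included, were fasted overnight before necropsy, and none carried a genetic modification.

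A-998679 is an experimental activator of the aryl hydrocarbon receptor (AhR). AhR is a ligand-activated transcription factor that pairs with ARNT in the nucleus and binds dioxin response elements, whose core is GCGTG, in front of genes such as Cyp1a1. The 5 genes share no pathway. Slc34a2 encodes the sodium-phosphate cotransporter NaPi-IIb, best known for phosphate uptake in the small intestine and in lung. Nim1k encodes a serine/threonine kinase of the AMPK-related family. Dhrs7l1 is named as a member of the short-chain dehydrogenase/reductase (SDR) family, enzymes that use NAD(H) or NADP(H) to oxidize or reduce small molecules. Dmxl2 encodes rabconnectin-3 alpha, which helps assemble the vacuolar proton pump (V-ATPase) that acidifies vesicles. Csrp1 encodes a small protein with LIM domains, zinc-binding modules, that sits on actin filaments and is abundant in smooth muscle.

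The start sites of the 5 genes were searched for the dioxin response element core, since AhR is the receptor the study addresses. RefSeq sequences of build GRCr8 were used, windows of 300 bases that hold the start of the gene, and all 5 genes matched, Nim1k with 3 start sites. GCGTG was counted on both strands, so that its complement CACGC counts as a match, and overlaps with other motifs were allowed. Of 33469 rat promoter windows, 29.7% hold at least 1 match. Dmxl2 held 5 matches, 1 on the strand of the gene and 4 on the other, which 0.478% of all windows reach. Csrp1 held 2 matches, a number that 10.2% of windows reach, Slc34a2 held 1, and Dhrs7l1 and the 3 windows of Nim1k held 0. The windows differ in base composition. The Dmxl2 window is 76.7% G and C, above 97.7% of all windows, the Csrp1 window 65.7% and the Dhrs7l1 window 47.3%. The windows with the most matches, a middle number and none are shown 5′ to 3′ on the strand of the gene, with each GCGTG or CACGC in capitals. They lie at chr8:63781067-63781366 on the minus strand for Dmxl2, chr13:49709678-49709977 on the plus strand for Csrp1 and chr6:97047850-97048149 on the minus strand for Dhrs7l1.
Dmxl2: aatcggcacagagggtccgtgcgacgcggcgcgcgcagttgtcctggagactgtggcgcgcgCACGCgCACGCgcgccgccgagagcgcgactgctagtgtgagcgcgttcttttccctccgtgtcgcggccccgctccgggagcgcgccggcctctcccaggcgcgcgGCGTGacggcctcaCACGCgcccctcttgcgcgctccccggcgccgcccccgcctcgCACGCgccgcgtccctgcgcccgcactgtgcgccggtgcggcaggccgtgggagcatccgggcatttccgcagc
Csrp1: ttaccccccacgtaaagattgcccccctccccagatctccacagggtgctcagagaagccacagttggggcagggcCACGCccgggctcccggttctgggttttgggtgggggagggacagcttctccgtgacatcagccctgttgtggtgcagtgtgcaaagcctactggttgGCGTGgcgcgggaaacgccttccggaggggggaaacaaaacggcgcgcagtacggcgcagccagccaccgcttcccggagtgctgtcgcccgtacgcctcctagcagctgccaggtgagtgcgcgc
Dhrs7l1: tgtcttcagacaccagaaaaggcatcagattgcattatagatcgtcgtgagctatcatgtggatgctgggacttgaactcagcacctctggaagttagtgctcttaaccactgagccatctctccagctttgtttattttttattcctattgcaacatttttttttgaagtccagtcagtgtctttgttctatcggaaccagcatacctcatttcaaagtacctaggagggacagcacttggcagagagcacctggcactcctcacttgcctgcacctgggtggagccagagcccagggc
A match is a string of letters and not a bound site, and binding was not measured in these livers. The core of the antioxidant response element, TGACNNNGC, is in 12.1% of all windows and was found in 1 of the 3 Nim1k windows and in no window of the other 4 genes. TATAAA is in 14.2% of all windows and was found in another of the Nim1k windows only.

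The arrays were alike in scale. Their median signals lay between 5.21 and 5.26 on the log2 scale, and 12.0% to 12.5% of values per array were empty. Pairs of rats of 1 group correlated at 0.913 to 0.938 and pairs from different groups at 0.910 to 0.941, so the 2 ranges overlapped. Signals are given below in intensity units on a linear scale and differences on the log2 scale. A floor of 14.3 units (the 25th percentile of all values) marks where signals become dim. The tissue is whole liver, in which fewer cells of a type and less RNA per cell cannot be told apart.

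Slc34a2 was lower the higher the dose. Its signal was 722, 437 and 244 units in the vehicle rats, 274, 387 and 226 units at 30 mg/kg, 122, 93.1 and 150 units at 100 mg/kg, and 69.0, 82.1 and 66.6 units at 200 mg/kg. The 30 mg/kg rats overlapped the vehicle rats, while every rat at 100 and at 200 mg/kg was below every vehicle rat and every 30 mg/kg rat. The difference from vehicle was -0.56 (95% interval -1.24 to 0.12) at 30 mg/kg, -1.83 (-2.51 to -1.15) at 100 mg/kg and -2.56 (-3.24 to -1.87) at 200 mg/kg, the last a 5.89-fold lower level. The vehicle rats themselves spread widely. Without vehicle rat 1 the 30 mg/kg difference was -0.18, and without vehicle rat 3 it was -0.96. The standard deviation within groups, 0.48 on the log2 scale, was above that of 97.3% of probe sets of similar level.

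Nim1k was lower in every treated rat with a value, and its signal was dim or empty at the higher doses. Its signal was 80.5, 79.5 and 78.8 units in the vehicle rats and 36.1, 52.0 and 12.9 units at 30 mg/kg. At 100 mg/kg only rat 3 had a value, 8.97 units, and at 200 mg/kg rats 2 and 3 had 1.31 and 3.13 units, with the other values empty. Every treated rat with a value was below every vehicle rat, and every value at 100 and 200 mg/kg was below the floor. The difference from vehicle was -1.46 (95% interval -2.68 to -0.24) at 30 mg/kg, -3.15 (-4.87 to -1.43) from 1 rat at 100 mg/kg and -5.30 (-6.66 to -3.94) from 2 rats at 200 mg/kg. These fits dropped the empty values. With empty and dim values set to the floor, Nim1k was 5.56-fold lower both at 100 and at 200 mg/kg than in vehicle rats, and the 2 doses then had no order. This is a lower bound only if the empty values were dim, and why values are empty was not given. Dhrs7l1, for example, has an empty value at 200 mg/kg beside rats with 198 and 82.9 units. The 30 mg/kg difference was -0.88 without rat 3 of that dose and -1.88 without rat 2. At 200 mg/kg it was -4.67 without rat 2, which held the lowest value, and -5.93 without rat 3.

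Dhrs7l1 varied most between rats and did not follow the order of the doses. Its signal was 2205, 528 and 1502 units in the vehicle rats, 529, 178 and 303 units at 30 mg/kg, 810, 494 and 895 units at 100 mg/kg, and 198 and 82.9 units in rats 1 and 3 at 200 mg/kg, with the value of rat 2 empty. The 30 and 100 mg/kg rats overlapped the vehicle rats, and both values at 200 mg/kg were below all of them. The difference from vehicle was -1.98 (95% interval -3.10 to -0.86) at 30 mg/kg, -0.76 (-1.88 to 0.35) at 100 mg/kg and -3.23 (-4.48 to -1.98) from 2 rats at 200 mg/kg. The spread within groups, 0.82 on the log2 scale, exceeded that of 99.4% of probe sets of similar level. Without vehicle rat 2, the lowest of its group, the 3 differences grew, to -1.36 at 100 mg/kg, and without vehicle rat 1 that difference was -0.33. The 30 mg/kg difference became -2.58 when vehicle rat 2 was left out. At 200 mg/kg it was -2.61 without rat 3 of that dose and -3.86 without rat 1.

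Dmxl2 had a tight spread and a dip at the lowest and the highest dose. Its signal was 164, 143 and 140 units in the vehicle rats, 74.4, 71.0 and 64.5 units at 30 mg/kg, 110, 117 and 141 units at 100 mg/kg, and 60.4, 63.9 and 63.0 units at 200 mg/kg. All 3 rats at 30 and at 200 mg/kg were below every vehicle rat. The 100 mg/kg rats were all above the rats of both other doses, and rat 3 of that dose reached into the vehicle range. The difference from vehicle was -1.09 (95% interval -1.38 to -0.79) at 30 mg/kg, -0.28 (-0.58 to 0.01) at 100 mg/kg and -1.25 (-1.55 to -0.95) at 200 mg/kg. The standard deviation within groups was 0.13 on the log2 scale, above that of 9.0% of probe sets of similar level.

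Csrp1 showed the least spread of the 5 genes and small differences at every dose. Its signal was 368, 343 and 360 units in the vehicle rats, 240, 239 and 251 units at 30 mg/kg, 256, 269 and 237 units at 100 mg/kg, and 205, 200 and 186 units at 200 mg/kg. The 9 treated rats were all below the 3 vehicle rats, the 30 and 100 mg/kg rats overlapped each other, and the 200 mg/kg rats were below all other rats. The difference from vehicle was -0.55 (95% interval -0.74 to -0.36) at 30 mg/kg, -0.49 (-0.68 to -0.30) at 100 mg/kg and -0.86 (-1.05 to -0.67) at 200 mg/kg, a level 1.81-fold lower. Its standard deviation within groups, 0.066 on the log2 scale, was above that of only 2.36% of probe sets of similar level.

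**Figure D1:**
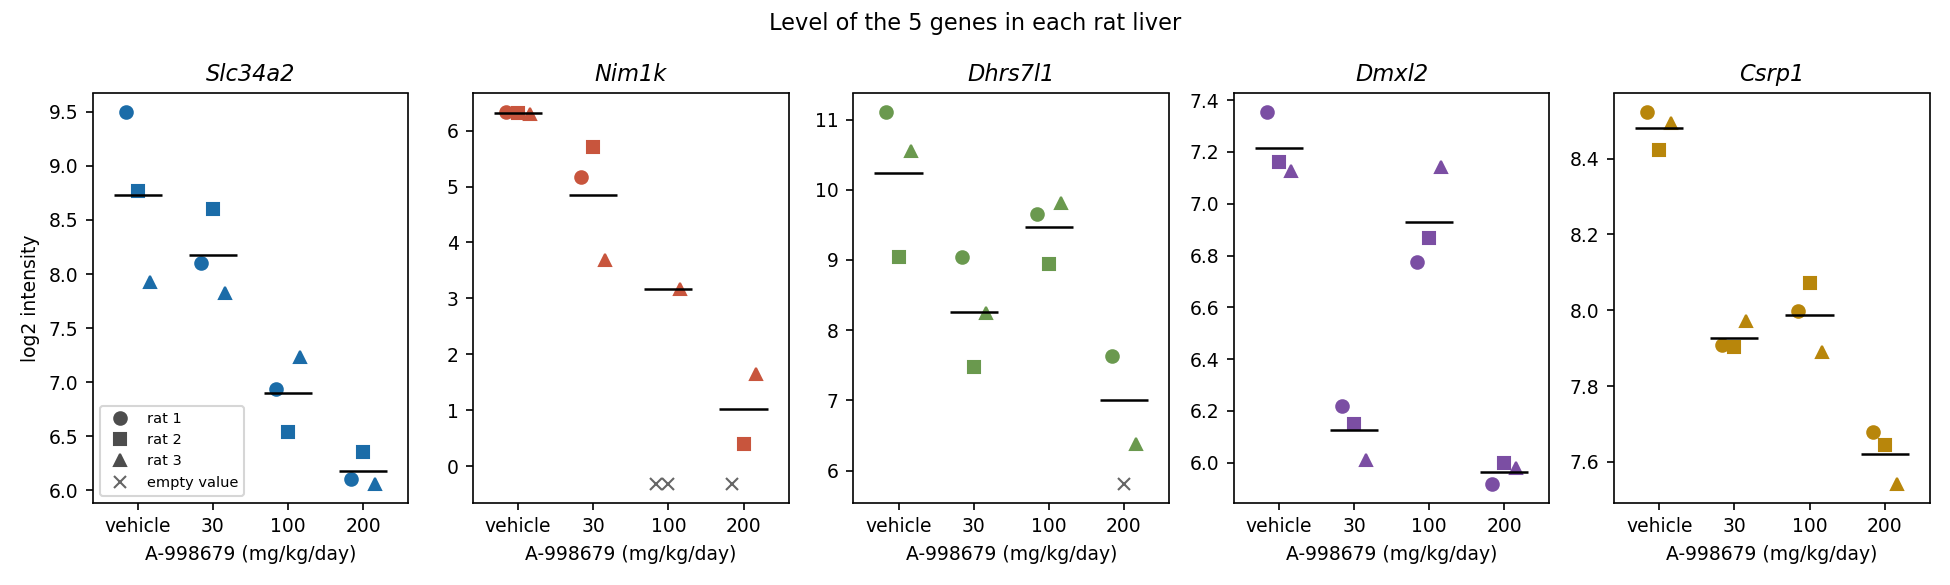
Log2 intensity of each gene (y axis, scaled per panel) in each rat by dose of A-998679 (x axis), with the rat number as the symbol, the group mean as a line and empty values as crosses at the foot. Slc34a2 steps down with dose, Nim1k is below the floor in every value at 100 and 200 mg/kg, Dhrs7l1 and Dmxl2 are higher at 100 mg/kg than at 30 and 200 mg/kg, and all 9 treated rats lie below the vehicle rats for Csrp1.

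**Figure D2:**
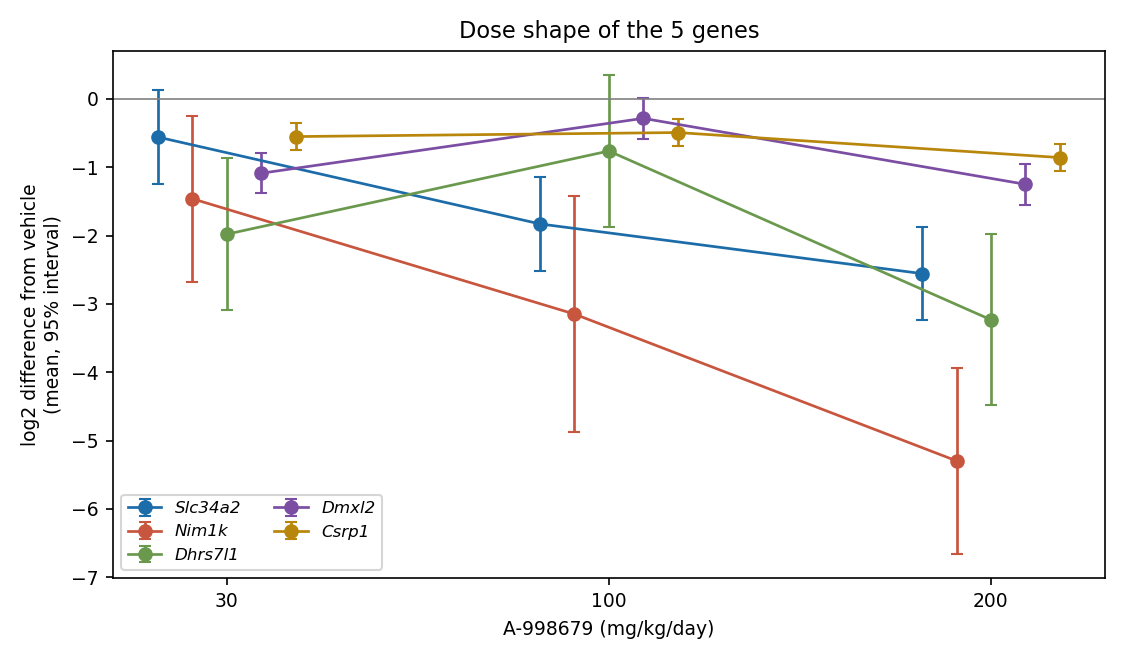
Mean log2 difference from vehicle (y axis) of the 5 genes at each dose (x axis), with 95% intervals from the limma fit. The intervals for Slc34a2 at 30 mg/kg and for Dhrs7l1 and Dmxl2 at 100 mg/kg reach 0, and the lowest mean, -5.30 for Nim1k at 200 mg/kg, rests on signals below the floor.

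Only Csrp1 had all 9 treated rats below all vehicle rats with a value in every rat, a pattern that 0.683% of the 20497 complete probe sets show. Complete separation below vehicle within 1 dose is common at 3 rats a group, at 5.32% of complete probe sets for 30 mg/kg, 6.31% for 100 mg/kg and 7.49% for 200 mg/kg. Of the 3 complete genes, 2 (Dmxl2 and Csrp1) separated at 30 mg/kg, 2 (Slc34a2 and Csrp1) at 100 mg/kg and all 3 at 200 mg/kg. The genes were chosen on these same differences, so nothing is read from the counts.

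The order of the 5 genes among all genes depended on the measure. Averaged over the 3 doses, the differences from vehicle were -3.30 for Nim1k, -1.99 for Dhrs7l1 (-2.59 without vehicle rat 2), -1.65 for Slc34a2, -0.87 for Dmxl2 and -0.63 for Csrp1. Among 12706 genes, 8 had a larger fall by size than Nim1k, 65 than Dhrs7l1, 100 than Slc34a2, 459 than Dmxl2 and 800 than Csrp1. Ordered by the p-value of the limma fit, Csrp1 and Dmxl2 were the first and the second of the genes that were lower, with 4 genes ahead of Slc34a2, 6 ahead of Nim1k and 18 ahead of Dhrs7l1. The genes were chosen on these same differences, so their places in either order are a description and carry no test. The group thus mixes large differences in variable genes with small differences in very steady ones. The limma fit called lower, at an adjusted p under 0.05, 0.00369% of probe sets tested at 30 mg/kg, 0.0% at 100 mg/kg, 0.0926% at 200 mg/kg and 0.0191% in the mean of the doses. At 200 mg/kg a further 0.119% were called higher.

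The doses were then compared with each other. The genes were chosen on these same treated values, so the p-values and counts that follow describe the dose shapes and are not independent tests. No difference between doses of the 5 genes passed after Benjamini-Hochberg adjustment over all probe sets in limma. Few probe sets of any kind did, with 0.0% called for 100 against 30 mg/kg, 0.0185% for 200 against 30 mg/kg and 0.0% for 200 against 100 mg/kg. At an unadjusted p under 0.05, limma picked 3 of the 5 genes for 100 against 30 mg/kg, 4 for 200 against 30 mg/kg and all 5 for 200 against 100 mg/kg, where 5.49%, 7.79% and 5.9% of all probe sets did so in the same order of comparisons. Nothing is read from these counts, given how the genes were chosen.

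Slc34a2 at 200 mg/kg against 30 mg/kg came closest to the threshold, at -1.998 (95% interval -2.68 to -1.32, limma adjusted p = 0.052, 3 of 3 rats below the 30 mg/kg rats). Over the alternative settings that adjusted p ran between 0.013 and 0.30. Leaving out vehicle rat 1 gave 0.018, and leaving out vehicle rat 3 gave 0.013. The 100 mg/kg rats were lower than the 30 mg/kg rats by a difference of -1.27 (limma adjusted p = 0.71) and the 200 mg/kg rats lower than the 100 mg/kg rats by -0.73 (limma adjusted p = 0.83). Nim1k at 100 and at 200 mg/kg had only empty values or values below the floor, so the sizes of its differences between doses are not settled. With empty and dim values at the floor it was lower than at 30 mg/kg by a difference of -1.07 at 100 mg/kg (limma adjusted p = 0.91) and at 200 mg/kg (limma adjusted p = 0.59), and 200 and 100 mg/kg then had no order. The fit on the values as deposited gave -3.84 between 200 and 30 mg/kg (limma adjusted p = 0.085), from 2 rats against 3, a size that rests on signals below the floor.

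Dmxl2 was 1.75-fold higher at 100 than at 30 mg/kg, a difference of 0.80 (95% interval 0.51 to 1.10, limma adjusted p = 0.29, 3 of 3 rats above). Between 200 and 100 mg/kg the difference was -0.97 (-1.26 to -0.67, limma adjusted p = 0.14, 3 of 3 rats below), and between 200 and 30 mg/kg it was -0.16 (-0.46 to 0.13, limma adjusted p = 0.81). Having all 3 rats at 100 mg/kg above all rats of both other doses is a pattern of 1.34% of complete probe sets. Dhrs7l1 had the same shape with wider errors. It differed by 1.22 (0.10 to 2.33, limma adjusted p = 0.90) between 100 and 30 mg/kg, where the rats overlapped, by -1.25 (-2.50 to -0.004, limma adjusted p = 0.64) between 200 and 30 mg/kg, and by -2.47 (-3.72 to -1.22, limma adjusted p = 0.55) between 200 and 100 mg/kg. The 200 against 30 mg/kg difference was -0.62 without rat 3 at 200 mg/kg and -1.88 without rat 1. Csrp1 at 100 mg/kg stood within 0.06 (-0.13 to 0.25, limma adjusted p = 0.96) of its level at 30 mg/kg. Csrp1 differed by -0.31 (-0.50 to -0.12, limma adjusted p = 0.38) between 200 and 30 mg/kg and by -0.37 (-0.56 to -0.17, limma adjusted p = 0.55) between 200 and 100 mg/kg.

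**Figure D3:**
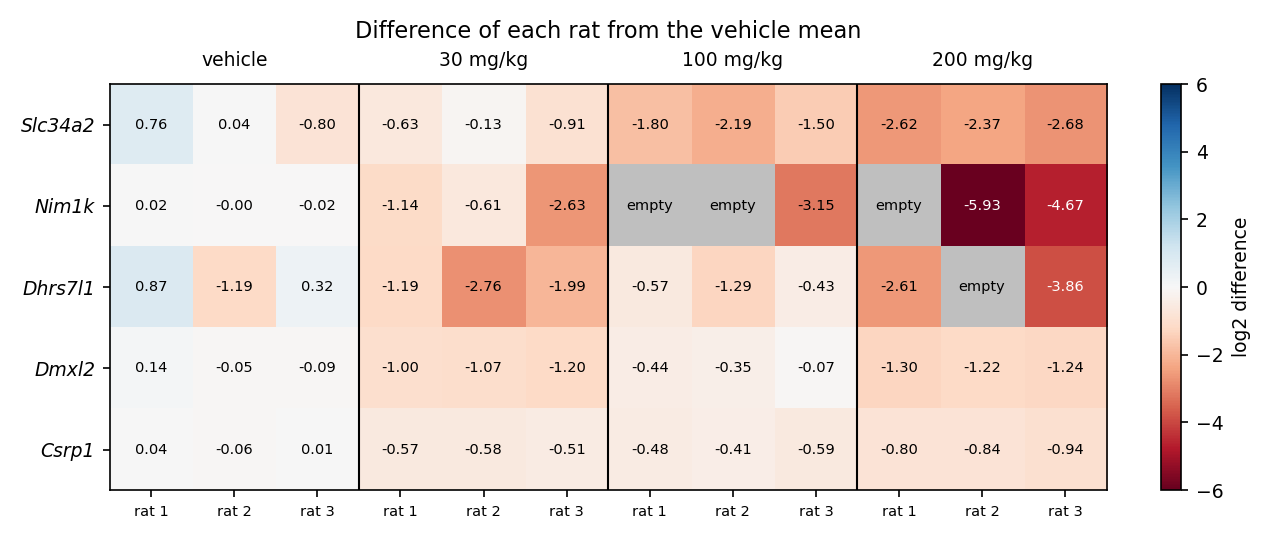
Log2 difference of each rat (columns, grouped by dose) from the mean of the vehicle rats for each gene (rows), with the value printed in each cell and empty values in gray. Dmxl2 runs between -1.20 and -0.997 at 30 mg/kg, between -0.44 and -0.07 at 100 mg/kg and between -1.30 and -1.22 at 200 mg/kg.

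The 5 genes were also compared rat by rat. Over all rats with both values, which share the dose groups, the levels of Slc34a2 and Nim1k correlated at 0.91 (Pearson r, 9 rats), Dhrs7l1 and Dmxl2 at 0.86 (11 rats) and Dmxl2 and Csrp1 at 0.83 (12 rats). The r with Nim1k rests in part on Nim1k signals below the floor. The lowest r of any pair was that of Slc34a2 with Dmxl2, at 0.51 (12 rats). After the group means were taken out, the same pairs stood at 0.26, 0.32, -0.45 and 0.64. Within the vehicle group rat 1 was the highest for all 5 genes. Rat 3 was the lowest for Slc34a2, Nim1k and Dmxl2, and rat 2 for Dhrs7l1 and Csrp1.

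The 3 genes most like each of the 5 were taken by Pearson r of log2 values over the rats, among 10907 genes with a value in every rat. Because likeness to a gene that was lower with treatment fixes their direction, their own values describe a shared shape only. Slc34a2 was closest to Abhd1 (r = 0.94), Inhba (0.91), the beta A subunit of activins and inhibin A, and Slc16a1 (0.91), the lactate and pyruvate transporter MCT1. At 200 mg/kg Abhd1 differed from vehicle by -0.56, Inhba by -1.43 and Slc16a1 by -1.01. Nim1k, over the 9 rats with a value, was closest to Smim14 (0.98), the sialyltransferase gene St6gal1 (0.98) and again Slc16a1 (0.98). These r values with Nim1k rest in part on Nim1k signals below the floor. Dhrs7l1, over 11 rats, was closest to Obp3 (0.89), Scgb1a1 (0.89) and Marchf8 (0.86), a ubiquitin ligase gene. Dmxl2 was closest to Marchf8 (0.88), Arl6ip1 (0.87) and the RNA-binding protein gene Celf2 (0.87). Csrp1 was closest to Zfp68 (0.94), Zmiz2 (0.89) and Hao1 (0.88), the glycolate oxidase of liver peroxisomes. At 200 mg/kg Zfp68 differed from vehicle by -0.63, Zmiz2 by -0.90 and Hao1 by -0.49. With the group means taken out, r ran from -0.44 (Hao1 with Csrp1) to 0.85 (Abhd1 with Slc34a2). Marchf8 with Dmxl2 stood at -0.01, so some of this likeness lies in the group means alone. The Obp3 probe set is of a kind that can cross-hybridize with related transcripts, and Scgb1a1 was dim, with a mean log2 signal of 3.94 in vehicle rats, near the floor of 3.84.

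**Figure D4:**
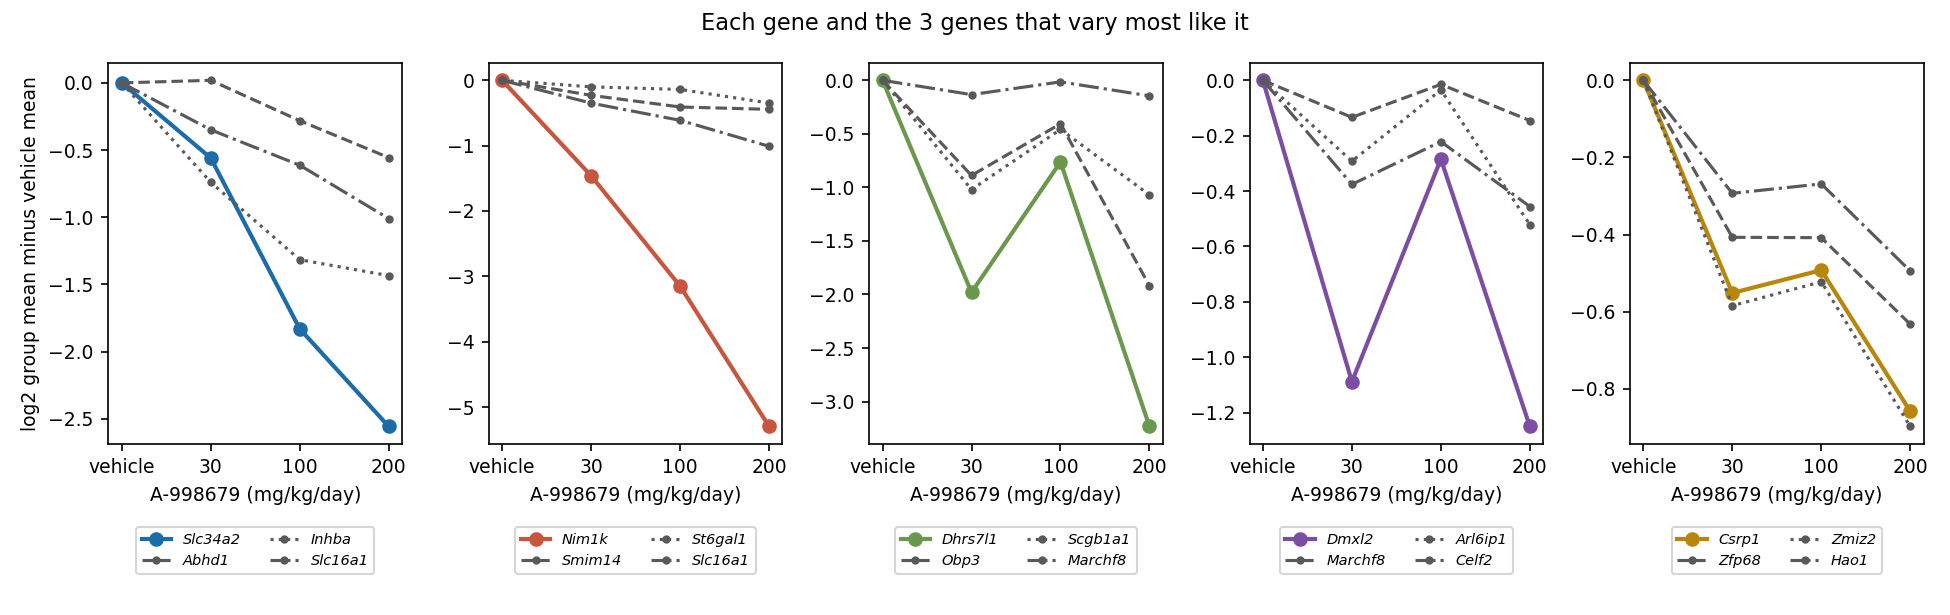
Group mean log2 level minus the vehicle mean (y axis) by dose (x axis) for each of the 5 genes (thick line) and the 3 genes with the highest Pearson r to it (thin lines). Slc16a1, with -1.01 at 200 mg/kg, is among the genes closest to both Slc34a2 and Nim1k, and Marchf8 has the shape of Dhrs7l1 and Dmxl2 at a far smaller size, -0.15 at 200 mg/kg. The likeness to Nim1k rests in part on Nim1k signals below the floor.

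None of the relatives of the 5 genes by function passed the test. No gene of the 5 lists was called at an adjusted p under 0.05 in limma at any dose. Calls were rare over all probe sets too, with 0.0926% called lower and 0.119% higher at 200 mg/kg. At 30 and 100 mg/kg only 2 and 6 probe sets were called. Lists of this size would then rarely hold a call, so nothing is read from their absence. Across all probe sets at 200 mg/kg, 4.34% were lower and 4.39% higher with an unadjusted p under 0.05, and the median difference was -0.0013. Of the V-ATPase subunits and partners of Dmxl2, 27 of 29 were measured and 26 tested at 200 mg/kg, 1 was higher and 1 lower at that level, and the median was 0.09. Atp6v1g1 differed by 0.34 (limma adjusted p = 0.23) and Atp6v0c, a subunit of the membrane ring, by -0.16 (limma adjusted p = 0.55). Dmxl1, the closest relative of Dmxl2, differed by 0.11 ± 0.46 (SE).

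Of the LIM domain and actin filament genes listed with Csrp1, 34 of 37 were measured and 33 tested. At an unadjusted p under 0.05, 2 were higher and 2 lower, and the median was -0.02. Crip2 differed by -0.29 (limma adjusted p = 0.41), Pdlim1 by 0.39 (limma adjusted p = 0.45), and Csrp2 by 0.30 ± 0.26 (SE). Of the AMPK-related kinases and their activators, all 24 measured of 27 were tested, 1 was higher and 1 lower, and the median was -0.02. Prkab1, a regulatory subunit of AMPK, differed by -0.59 (limma adjusted p = 0.42) and Mark2 by 0.29 (limma adjusted p = 0.53).

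Of the phosphate transporters and the hormones that control them, 19 of 23 were measured and 18 tested, 2 were higher and 4 lower at that level, and the median was 0.06. Slc17a1 differed by 0.66 (limma adjusted p = 0.15) and Cyp27a1, a sterol hydroxylase that also acts on vitamin D, by 0.48 (limma adjusted p = 0.21). Slc34a1, the kidney paralog of Slc34a2, differed by -1.22 (limma adjusted p = 0.25), and the phosphate carriers Slc20a1 and Slc20a2 by 0.10 ± 0.17 and -0.08 ± 0.21 (SE). Of the SDR enzymes, 44 of 49 were measured and 42 tested, 2 were higher and 5 lower, and the median was -0.06. Decr1, of fatty acid oxidation, differed by -0.30 (limma adjusted p = 0.20), Rdh10, a retinol dehydrogenase, by -0.30 (limma adjusted p = 0.30), and Dhrs7 by -0.43 ± 0.24 (SE). Bdh2 went the other way, by 1.88 (limma adjusted p = 0.31), from a dim vehicle mean log2 signal of 3.76.

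**Figure D5:**
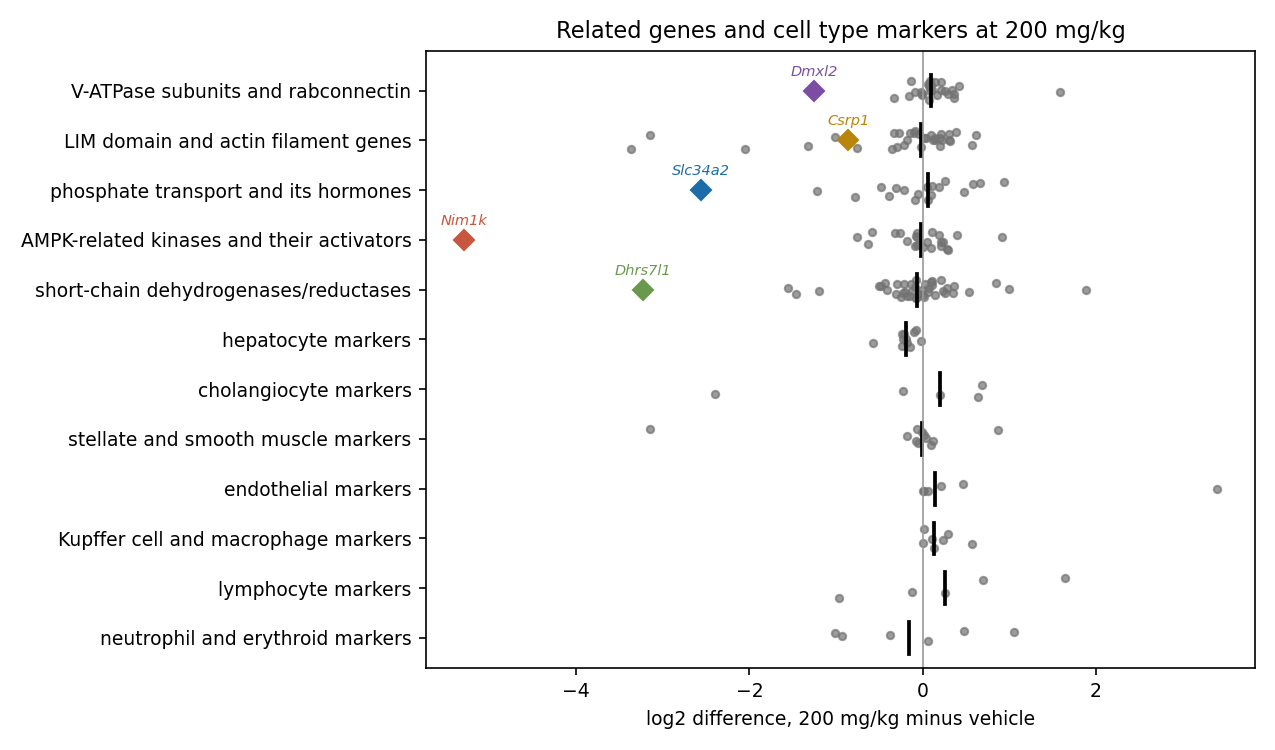
Log2 difference between 200 mg/kg and vehicle (x axis) of each tested gene of the 5 functional lists and the 7 cell type marker lists (gray points), with the list median as a bar and the gene the list belongs to as a colored diamond. The medians of the 5 functional lists lie between -0.06 and 0.09, and the diamonds mark genes that were chosen for being lower.

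Cell type markers were measured beside the 5 genes. The summed signal of 11 hepatocyte markers was 57745 to 67995 units in the 200 mg/kg rats, against 66134 to 70511 units in the vehicle rats. All 11 were lower at 200 mg/kg, by a median of -0.20. Of these, 4 (Ttr, Apob, Fgb and Hnf4a) had an unadjusted limma p under 0.05 and 0 were called. Over all probe sets, 4.34% were lower at that unadjusted p. At 100 mg/kg 8 of the hepatocyte markers were above and 3 below vehicle. The summed signal of 7 cholangiocyte markers was 135 to 203 units at 200 mg/kg and 123 to 169 units in vehicle rats, with Cldn7 empty or dim in all rats. That of 12 stellate and smooth muscle markers was 2202 to 3099 units at 200 mg/kg and 2626 to 2792 units in vehicle rats, with Tagln empty or dim in all rats. The brightest gene of this list was the collagen gene Col3a1, with a mean log2 signal of 10.4, so the sum says little of smooth muscle. Of its smooth muscle genes, Acta2 differed by 0.09 at 200 mg/kg and Myh11, with a value in only 5 rats of the study, by -3.15. In the other lists, the endothelial marker Vwf and the lymphocyte marker Cd8a were empty or dim in all rats. All 7 Kupffer cell and macrophage markers (median 0.13) and all 6 endothelial markers (median 0.14) were above vehicle at 200 mg/kg, none of them at an unadjusted p under 0.05. The erythroid marker Slc4a1 differed by -1.19 at 30 mg/kg (limma adjusted p = 0.97), by -2.35 at 100 mg/kg (limma adjusted p = 0.33) and by -1.01 at 200 mg/kg (limma adjusted p = 0.62). The other measured erythroid markers did not share this size. Hbb differed by -0.21, -0.37 and -0.38 and Alas2 by -0.04, -0.02 and 0.07 at 30, 100 and 200 mg/kg. Of the 6 neutrophil and erythroid markers tested at 200 mg/kg, 3 were above and 3 below vehicle. No marker was called at an adjusted p under 0.05 in limma at any dose. At 200 mg/kg limma called 0.0926% of all probe sets lower and 0.119% higher, so nothing is read from this absence. The liver label thus fits the hepatocyte markers, none of which was dim, and the part of cell composition in the 5 genes' levels was not tested.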

How the data were processed

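Affymetrix RAE230 2.0 arrays, 1 per rat liver, were processed by the authors in the Rosetta Resolver software, whose error model they used to test the arrays. The deposited values are log10 intensities per probe set. How backgrounds were corrected, how arrays were scaled and why some values are empty was not given in the sources used here. Base 10 was taken from the range, since array maxima lie at 3.91 to 4.03. The values were multiplied to log2 with no further normalization, and the 42431 empty values (12.1%) were left out of fits. A deposited table of the authors' own fold changes per treated rat was not used. Of 29176 probe sets, 19691 carry 1 gene symbol, 424 several and 9061 none in the platform annotation. Groups follow the sample titles.

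Group means of all 4 groups were fitted with limma 3.58.1 (R 4.3.3, eBayes with a variance trend) and p-values were adjusted by Benjamini-Hochberg over all probe sets tested, with a threshold of 0.05. The script was tested on simulated data. Intervals are 95% intervals from moderated standard errors, and the number of arrays limits their precision. They do not allow for the choice of the 5 genes by their difference from vehicle. The 5 genes and the gene lists were chosen with earlier results of these data known. Named besides the 5 genes were the 3 genes most like each, the 5 other genes with the largest fall in the mean of the doses, and of each list any gene called and the 2 with the smallest p at 200 mg/kg. Other relatives and markers were named after their values were seen. The alternatives were quantile normalization, a common 75th percentile, a floor under empty and dim values, leaving out dim or incomplete probe sets, no variance trend, array weights, only the groups compared, a replicate block, the methods' t-test, and leaving out each rat. Figures were drawn with matplotlib 3.10.9.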

Additional observations from a re-analysis of the deposited data

How the results depend on the processing

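The calls over all probe sets were few and moved with the settings. At 30 mg/kg 2 probe sets were called, against 4 with the floor under empty and dim values, 1 without dim or incomplete probe sets, 1 with only the groups compared, and 0 with no variance trend, with the replicate block or with the methods' t-test. At 100 mg/kg 6 were called, against 2 without dim or incomplete probe sets, 0 with no variance trend, 11 with array weights, 2 with the replicate block and 0 with the methods' t-test. At 200 mg/kg 57 were called, against 18 with the floor, 3 with no variance trend, 95 with array weights, 26 with only the groups compared and 1 with the methods' t-test. In the mean of the doses 16 were called, against 6 with the floor, 1 with no variance trend, 4 with the replicate block and 3 with the methods' t-test. For 100 against 30 mg/kg 0 were called, against 1 with a common 75th percentile and 2 with the floor. For 200 against 30 mg/kg 5 were called, against 16 with quantile normalization, 11 with a common 75th percentile, 17 without dim or incomplete probe sets, 0 with no variance trend, 3 with the replicate block and 0 with the methods' t-test. For 200 against 100 mg/kg 0 were called, against 6 with the floor, 1 with only the groups compared and 1 with the replicate block. Leaving out 1 rat at a time gave 0 to 4, 1 to 9, 26 to 67, 5 to 19, 0 to 1, 3 to 14 and 0 to 4 calls in the same order of comparisons. The count with 200 mg/kg was 28, 27 and 26 without vehicle rats 1, 2 and 3, and in the mean of the doses it was 5 without vehicle rat 1, 9 without vehicle rat 2 and 10 without 100 mg/kg rat 1. Leaving out rat 1 or rat 2 of the 100 mg/kg group gave 1 call at that dose, and for 200 against 30 mg/kg 14 without 200 mg/kg rat 2. The cause of these shifts was not tested.

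The methods' t-test at an unadjusted p of at most 0.05 picked 1270, 1709 and 2097 probe sets at 30, 100 and 200 mg/kg, and 0, 0 and 1 after Benjamini-Hochberg adjustment. The paper names this t-test apart from the error model it used for the arrays, so these counts do not repeat the authors' array test. For the 5 genes, the floor moved Nim1k to -2.48 at 200 mg/kg and to -2.12 in the mean of the doses, where Dhrs7l1 was then at -2.34, and Dhrs7l1 to -4.29 at 200 mg/kg, where the empty value then counts as dim. Between 200 and 100 mg/kg the floor leaves Nim1k at 0, since all values of both groups sit on it. Slc34a2 at 200 against 30 mg/kg passed with quantile normalization (limma adjusted p = 0.049), without dim or incomplete probe sets (0.048) and with only the groups compared (0.018). Dmxl2 at 200 against 100 mg/kg passed with the floor (limma adjusted p = 0.033), and Dhrs7l1 in the same comparison passed with the replicate block (a difference of -2.89, limma adjusted p = 0.031). The deviations of rats of 1 number correlated at -0.074 to 0.076, so no strong effect shared across probe sets was seen. Whether the numbers mark a pairing in dosing or processing was not given.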

Other observations

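Among other genes with a value in every rat, the 5 that lay furthest below vehicle on average over the doses were the nitric oxide synthase gene Nos1 (-2.50), the muscle gene Stac3 (-2.21), RGD1309362 (-2.09), the troponin gene Tnnt3 (-1.98) and Lox (-1.92), which encodes the enzyme that crosslinks collagen. None passed in limma, with adjusted p-values of 0.80, 0.21, 0.43, 0.84 and 0.18. Nos1 and Tnnt3 were dim and varied by 2.59 and 2.37 on the log2 scale (SD within groups). Lox, at -2.63 with 200 mg/kg (limma adjusted p = 0.061), and Stac3, at -3.27 (limma adjusted p = 0.056), were nearest to the threshold at that dose.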
